A study of Homo sapiens with 6 samples.

Results

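Chaperones bind unfolded proteins and help them fold, and the members described here are the cytosolic and mitochondrial chaperones, their co-chaperones and 2 of the transcription factors that control them. They were chosen by gene symbol from a list of 43 genes. All 43 were among the 35793 genes listed, and all 43 averaged 10 or more normalized counts over the libraries and so were among the 15536 genes tested. RNA was measured in cardiomyocytes differentiated from human induced pluripotent stem cells on day 15. The wild-type cells were WTC11, an established line, and the others a WTC11 derivative with both copies of STK25, a serine/threonine kinase gene, disrupted by CRISPR/Cas9 (3 libraries of each genotype, with no treatment). The labels name 1 knockout line, so the edit and whatever else distinguishes these lines cannot be told apart. The replicates are labelled biological, with no statement on separate differentiations, so p-values measure the spread between these libraries only.

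In the cytosol, HSP70 proteins bind exposed hydrophobic stretches of a client, J proteins deliver clients and stimulate the ATPase of HSP70, and HSP110 and BAG proteins release the nucleotide so that the cycle can restart. HSP90 then acts on clients that are nearly folded, the ring-shaped TRiC complex encloses actin and tubulin, and small heat shock proteins hold unfolded clients without using ATP. Mitochondria have their own set, built around HSPA9, the HSPD1 and HSPE1 chamber and TRAP1. Heat and other stress raise many of these genes through HSF1, which binds inverted repeats of GAA in their promoters. Heart muscle has high levels of small heat shock proteins, and it needs UNC45B to fold myosin and BAG3 to remove damaged sarcomere proteins.

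Promoter sequences are shown for the genes that rose and were found in the promoter table, and for the members with the longest match to the binding site of HSF1, since these genes are classic targets of that factor. HSPA1A is shown for comparison with HSPA1B, its near copy. Sequences are from RefSeq promoters (GRCh38.p14), which were found for 38 of the 43 members under 52 start sites; HSF1, HSPA14, HSPB2, CRYAB and UNC45B had no match. The 250 bases before each start were searched on both strands for 2 alternating units, GAANNTTC or TTCNNGAA, each of which is its own reverse complement. They were also searched for 3 units, which is GAANNTTC followed by NN and GAA, or TTCNNGAA followed by NN and TTC. The longer forms contain the shorter ones. Of the 38 members found, 4 held the 3-unit form (HSPA8, HSP90AA1, HSP90AB1 and HSPD1), and 13 others held 2 units only. Counted over start sites, 3 units stood in 7.69% of member promoters and in 0.441% of all 35116 RefSeq promoters, and 2 units in 32.7% and 11.6%. In 74 promoters of other chaperones and co-chaperones, listed further below, the shares were 4.05% for 3 units and 12.2% for 2 units. A match shows only that these letters are present.

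Written 5′ to 3′ on the strand of the gene, with every matched element in capitals, the stretches were as follows. HSPA1A and HSPA1B are shown from 200 to 80 bases before the start (chr6:31815343-31815463 and chr6:31827538-31827658, plus strand), DNAJB1 from 120 to 24 bases before it (chr19:14518421-14518517, minus strand), and the others over 30 bases. Those are chr6:57172192-57172221 (plus) for BAG2, chr11:123062170-123062199 (minus) for HSPA8, chr14:102087113-102087142 (minus) for HSP90AA1, chr6:44247823-44247852 (plus) for HSP90AB1 and chr2:197500061-197500090 (minus) for HSPD1.
HSPA1A: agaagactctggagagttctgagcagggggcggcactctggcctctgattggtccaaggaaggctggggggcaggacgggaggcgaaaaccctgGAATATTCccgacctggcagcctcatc
HSPA1B: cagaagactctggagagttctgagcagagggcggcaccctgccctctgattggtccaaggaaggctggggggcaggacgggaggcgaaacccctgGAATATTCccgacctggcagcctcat
DNAJB1: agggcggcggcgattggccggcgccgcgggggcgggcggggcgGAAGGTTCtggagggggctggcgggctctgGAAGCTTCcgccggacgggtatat
BAG2: cgaccgatagGAACCTTCgcgtggggggag
HSPA8: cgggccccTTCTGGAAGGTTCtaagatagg
HSP90AA1: gggagggttcTTCCGGAAGGTTCgggaggc
HSP90AB1: tgagattgTTCTGGAAGCTTCtggattctg
HSPD1: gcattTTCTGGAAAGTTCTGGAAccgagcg
The HSPA1A and HSPA1B stretches were identical at 116 of 122 aligned positions (95.1%). The genes that rose among those with a sequence (HSPA1B, DNAJB1 and BAG2) carried 2-unit elements only. Positions before the start refer to the RefSeq start. All 30 bases shown for BAG2, HSPA8, HSP90AA1 and HSPD1 lay in exons annotated by GENCODE, against 0 bases for HSPA1A, HSPA1B, DNAJB1 and HSP90AB1. Exons of any gene on either strand were counted, so these need not be exons of the gene named. The BAG2 stretch lay before the first base of the BAG2 gene in GENCODE (chr6:57172326). The HSPD1 stretch lay before the first base of its main transcript (chr2:197500047). The HSPA8 and HSP90AA1 stretches lay downstream of the first base of the main GENCODE transcript (chr11:123062335 and chr14:102087191).

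Library depth ran from 22443904 to 53224112 reads. STK25 itself had 8874, 6774 and 8710 normalized counts in wild-type replicates 1, 2 and 3 and 3906, 3434 and 3820 in the knockout, a log2 fold change of -1.12 (SE 0.19, limma, Benjamini-Hochberg adjusted p = 0.00904), which was over 0.05 without wild-type replicate 1 (adjusted p = 0.0611). The exact two-sided permutation p of these values was 0.1, the smallest that 3 against 3 allows. Cardiomyocyte markers were present in every library, and all 12 on the list were tested, with 0 higher and 2 lower (PLN and NKX2-5) in the knockout. Their summed level was 1369450 to 1670010 normalized counts in the wild type and 1937500 to 3431420 in the knockout. The means of that sum were 1484820 and 2580980, and MYL7, which was not called, held 541523 and 1481020 of them. Of the 12 fold changes 7 were above 0 and 5 below. Markers of smooth muscle moved with the genotype, since 5 of 5 were higher in the knockout and their summed level was 79383 to 89832 normalized counts in the wild type and 491950 to 539638 in the knockout. Of other marker lists, 3 of 8 fibroblast and stromal genes were higher and 1 lower, 3 of 5 neural, 1 of 4 epicardial and 1 of 4 pluripotency genes were higher, 1 of 3 endoderm and liver genes was lower and 0 of 3 endothelial genes were called, each out of the genes tested. Summed levels in wild type and knockout, as means, were 20241 and 12790 for the fibroblast, 5921 and 10423 for the neural, 149 and 564 for the epicardial, 948 and 3999 for the pluripotency, 2178 and 1225 for the endoderm and 316 and 457 for the endothelial list. A sum follows its most abundant genes. Within these, NES, which was not called, had means of 5838 and 9771, TDGF1 560 and 3516 and COL1A2 7514 and 240. Of the 8 fibroblast genes, 5 had a fold change above 0 and 3 below. The endothelial gene VWF was at 0 in 5 libraries and the endoderm gene FOXA2 in all 6. The part of other cell types in the results below was not tested, and in bulk RNA a change in the cells present and a change per cell cannot be told apart.

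Wild-type replicate 2 and knockout replicate 1 stood apart from the other libraries of their genotype, and the chaperone genes show how. The 7 members with transcripts under 1500 bases (HSPE1, HSPB1, HSPB2, HSPB3, HSPB6, CRYAB and AHSA1) were all above the mean of the other 2 libraries of the genotype, in both of these libraries. Of the 8 members over 4000 bases, 7 were below it in each. Across the 43 members the log2 deviation fell with log2 transcript length, with Pearson's r of -0.57 in wild-type replicate 2 and -0.61 in knockout replicate 1 (Spearman's rho -0.53 and -0.56), and the deviations of the 2 libraries went together with r = 0.92. These are descriptions across genes that share the same 2 libraries, and the cause was not tested. Results are therefore given with all 6 libraries and, where the call differs, with the other 4. Leaving out the libraries that stand apart narrows the spread within genotypes by construction.

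**Figure D1:**
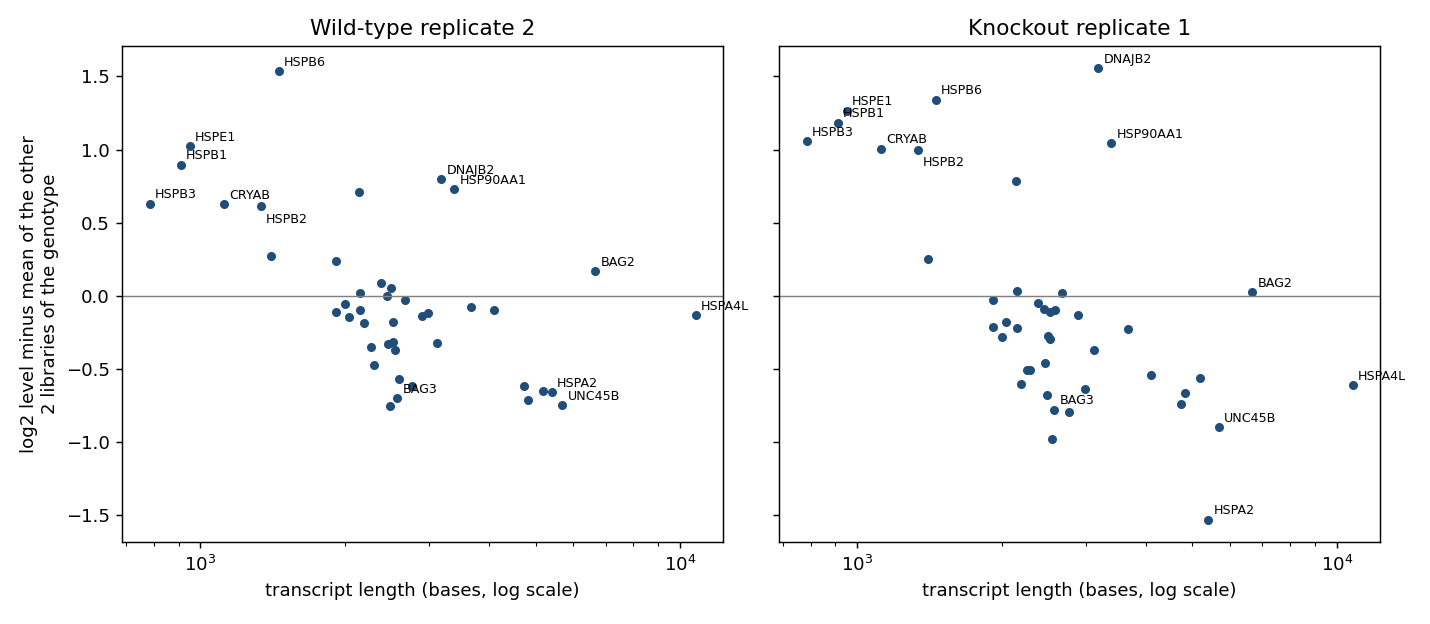
Each point is 1 of the 43 chaperone genes. The x axis is transcript length in bases on a log scale and the y axis the log2 level in wild-type replicate 2 (left) or knockout replicate 1 (right) minus the mean of the other 2 libraries of that genotype, so that short transcripts lie above 0 and most long ones below it in both panels.

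The comparison of knockout with wild type asked which chaperone genes depend on the STK25 genotype. With limma and an adjusted p under 0.05, 4 of the 43 members were higher in the knockout and 0 lower, against 5.97% and 6.79% of all tested genes, so 9.3% of members were called higher. At an unadjusted p under 0.05 there were 14 members in both directions together, or 32.6%, against 27.5% of all genes, which is near that background. The 4 were CRYAB, HSPA1B, DNAJB1 and BAG2. Of the 39 others most leaned the same way, and 36 of 43 members had a fold change above 0, against 50.4% of all genes. The median log2 fold change was 0.40 for the members and 0.0052 for all tested genes. In 17 members all 3 knockout libraries lay above all 3 wild-type libraries and in 2 members below, against 16.2% and 17.2% of all tested genes (33.4% in either direction). With edgeR on the recovered reads 3 members were higher and 0 lower, against 5.57% and 6.42% of genes. DESeq2 called 8 higher and 1 lower, against 10% and 10.7% of genes. It added HSPA2 (adjusted p = 0.0406), HSP90AB1 (0.0121), DNAJA1 (0.00151) and BAG3 (0.0134) as higher and HSPB7 (0.00213) as lower. Scaling all libraries to equal totals, which moves every gene by nearly the same amount, put the median of all genes at -0.27 and that of the members at 0.11. Quantile normalization gave 0.02 for all genes and 0.13 for the members, a smaller distance.

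Without wild-type replicate 2 and knockout replicate 1, 24 members were higher and 2 lower (limma, adjusted p under 0.05). In that fit 15.7% of all genes were called higher and 14.9% lower, so the calls rose for the whole table, and 55.8% and 4.65% of the members were called. The median log2 fold change of the members was 0.41, close to the 0.40 with all libraries. The members added were from every role except the heat shock factors, and the falls were HSPB2 and HSPB7.

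**Figure D2:**
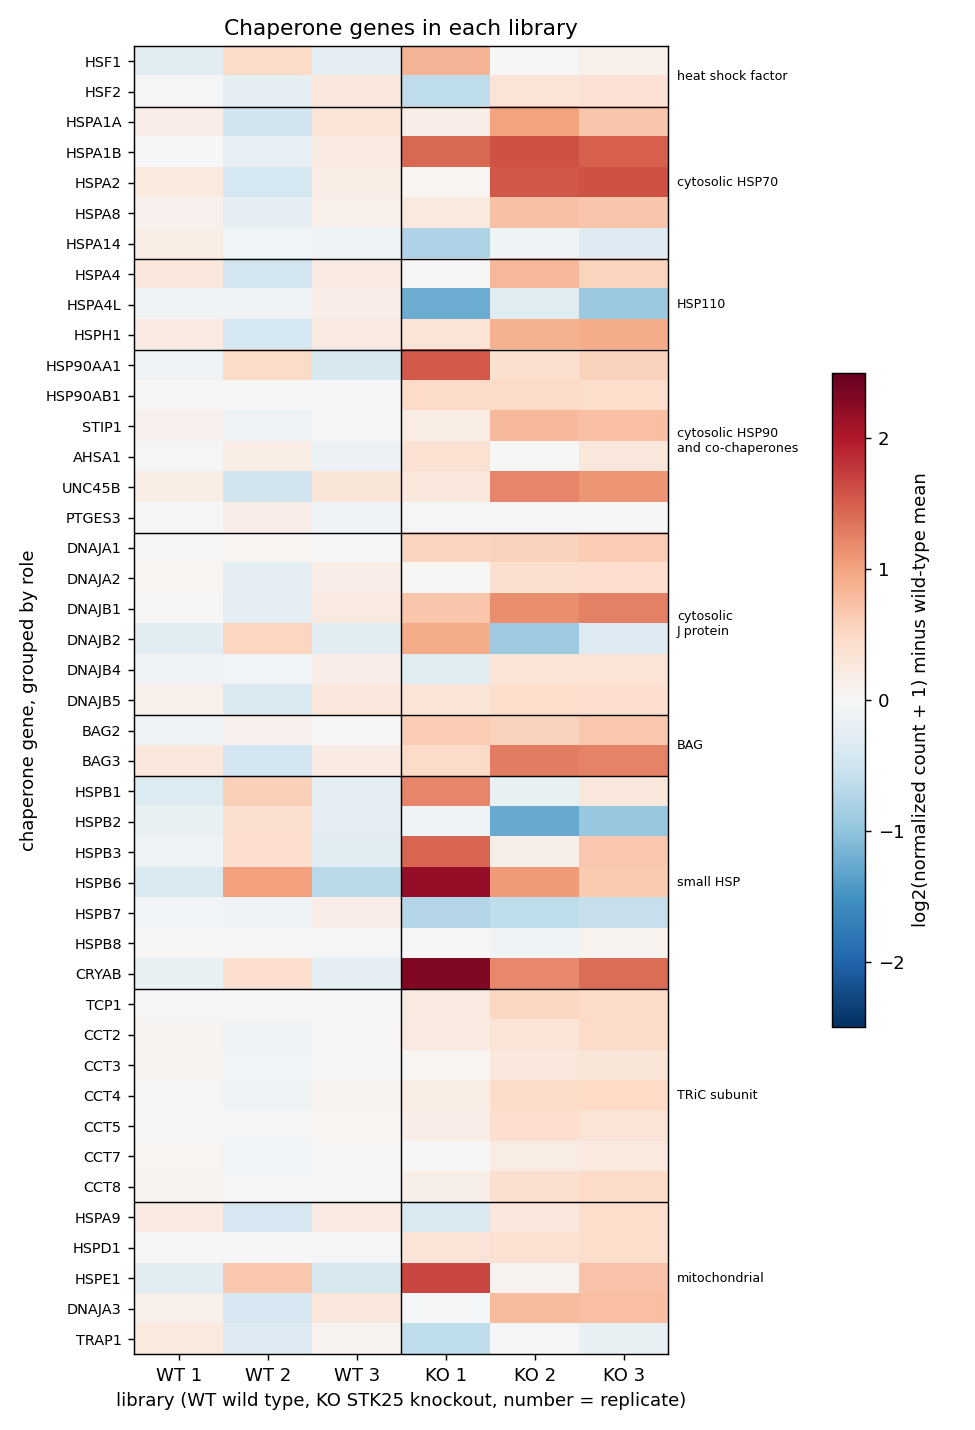
Rows are the 43 chaperone genes grouped by role and columns the 6 libraries. Colour is log2(normalized count + 1) minus the wild-type mean of the gene, with red higher and blue lower, and HSPA1B, DNAJB1, BAG2 and CRYAB are red in all 3 knockout columns.

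For the heat shock factors the replicates spread more widely than the genotypes. HSF1, the main activator of the heat shock response, had 2429, 4034 and 2502 normalized counts in the wild type and 5238, 2896 and 3191 in the knockout (log2 fold change 0.33, SE 0.30, limma adjusted p = 0.544). HSF2, a related factor that can form trimers with it, had 1739, 1501 and 2175 against 1147, 2241 and 2296 (log2 fold change 0.02, SE 0.31, limma adjusted p = 0.980). In both genes the genotypes overlapped. RNA levels do not report the activity of HSF1, which is controlled after translation.

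Among the HSP70 genes the stress-inducible HSPA1B rose. It had 2240, 1922 and 2552 normalized counts in the wild type and 6001, 6723 and 6233 in the knockout, or 2238 ± 315 and 6319 ± 369 (SD, n = 3 each). That is 2.82-fold, with a log2 fold change of 1.51 (SE 0.18, limma adjusted p = 0.00242), and all 6 fits that left out 1 library called it. The genotypes were far from overlapping.

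HSPA1A, its neighbour on chromosome 6, encodes a nearly identical HSP70 and had 2521, 1575 and 2807 against 2508, 4482 and 3592 normalized counts. Its log2 fold change was 0.62 (SE 0.30, limma adjusted p = 0.233), and knockout replicate 1 lay within the wild-type range. With the 4 libraries it was 0.59 (limma adjusted p = 0.0140). These 2 genes are hard to separate, since 74.3% of the 31-base words of the HSPA1A transcript also occur in HSPA1B, and the files do not show how reads were divided. Their sum avoids that question. It was 4539 ± 950 in the wild type and 9846 ± 1348 in the knockout (SD, n = 3 each). The log2 fold change was 1.13 (SE 0.22, limma adjusted p = 0.0163). The ratio of HSPA1A to HSPA1B was 1.12, 0.820 and 1.10 in the wild type and 0.418, 0.667 and 0.576 in the knockout, without overlap (exact two-sided permutation p = 0.1, the smallest that 3 against 3 allows, and 0.2 after adjustment over the 6 ratios tested).

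The constitutive HSPA8, which does most of the cytosolic HSP70 work in unstressed cells, was the most abundant of the family per length. It had 54125, 43277 and 54731 normalized counts in the wild type and 59945, 83688 and 81641 in the knockout. All knockout libraries were above all wild-type ones, but the log2 fold change of 0.56 (SE 0.24) did not pass (limma adjusted p = 0.186). With the 4 libraries it was 0.60 (limma adjusted p = 0.00329). Scaling all 6 libraries to equal totals lowered it to 0.28 and quantile normalization to 0.12 (limma adjusted p = 0.57 and 0.875).

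HSPA2, best known for its role in sperm development, had 476, 295 and 457 against 412, 1184 and 1205 normalized counts. Only knockout replicates 2 and 3 were high, and the log2 fold change of 1.06 (SE 0.45) did not pass (limma adjusted p = 0.169). Without knockout replicate 1 it was 1.57 (limma adjusted p = 0.0122), and with the 4 libraries 1.35 (limma adjusted p = 0.000415). HSPA14, a ribosome-associated relative, leaned the other way, with 1846, 1546 and 1488 against 955, 1498 and 1290 normalized counts (log2 fold change -0.40, limma adjusted p = 0.311).

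The 3 HSP110 genes, nucleotide exchange factors that also hold clients, did not move as a group. HSPH1 had 8693, 5550 and 8727 normalized counts in the wild type and 9451, 13793 and 14179 in the knockout (log2 fold change 0.71, SE 0.26, limma adjusted p = 0.125; 0.68 with an adjusted p of 0.00154 in the 4 libraries). HSPA4L had 575, 574 and 689 against 259, 492 and 322 (log2 fold change -0.82, SE 0.29, limma adjusted p = 0.110). These genotypes did not overlap in either gene, HSPH1 being above and HSPA4L below the wild type. HSPA4 had 6299, 3758 and 6015 against 5276, 9132 and 7701 normalized counts, with overlap (log2 fold change 0.46, limma adjusted p = 0.355; 0.45 with an adjusted p of 0.0264 in the 4 libraries). The ratio of HSPA4L to HSPA4 was 0.120 ± 0.031 in the wild type and 0.0483 ± 0.0061 in the knockout (SD, n = 3 each; exact two-sided permutation p = 0.1, adjusted 0.2).

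The J proteins and BAG proteins that serve HSP70 held 2 of the 4 rises. DNAJB1, the main stress-inducible J protein, had 4808, 4062 and 5571 normalized counts in the wild type and 7749, 10694 and 11392 in the knockout, or 4813 ± 754 and 9945 ± 1934 (SD, n = 3 each). The lowest knockout library was above the highest wild-type one. That is a 2.07-fold change, or 1.04 on the log2 scale (SE 0.22, limma adjusted p = 0.0221). It depended on the libraries used, since among the fits without 1 library only the one without knockout replicate 1 called it (adjusted p = 0.00954) and the others gave adjusted p-values from 0.0545 to 0.0997. Scaling to equal totals lowered it to 0.76 (adjusted p = 0.139).

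DNAJA1, an abundant type A J protein, had tight values of 15831, 16524 and 15317 against 23375, 23538 and 24829 normalized counts. The genotypes did not overlap, but the log2 fold change of 0.59 (SE 0.18) missed the threshold (limma adjusted p = 0.0680). With the 4 libraries it was 0.63 (limma adjusted p = 0.00227). DNAJB5 was also above the wild type in all 3 knockout libraries (log2 fold change 0.40, limma adjusted p = 0.287). DNAJA2, DNAJB2 and DNAJB4 overlapped between genotypes, with log2 fold changes of 0.28, -0.10 and 0.12.

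BAG2, which inhibits the ubiquitin ligase STUB1 as well as acting on HSP70, had 2658, 3113 and 2893 normalized counts in the wild type and 4502, 4275 and 4594 in the knockout. The means were 2888 ± 227 and 4457 ± 164 (SD, n = 3 each), 1.54-fold, with no overlap. The log2 fold change of 0.63 (SE 0.17) was just past the threshold (limma adjusted p = 0.0490). It missed it in all 6 fits that left out 1 library (adjusted p up to 0.216) and with edgeR (adjusted p = 0.0587), and scaling to equal totals lowered it to 0.35.

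BAG3, which couples HSP70 and HSPB8 to autophagy at the Z-disc, had 5058, 3052 and 4888 against 5873, 10216 and 9959 normalized counts. The knockout mean was 2.00 times the wild-type mean and the genotypes did not overlap, but wild-type replicate 2 and knockout replicate 1 were each the low library of their genotype. The log2 fold change was 0.99 (SE 0.30, limma adjusted p = 0.0694), 1.25 without knockout replicate 1 (limma adjusted p = 0.0203) and 1.02 with the 4 libraries (limma adjusted p = 0.000156).

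**Figure D3:**
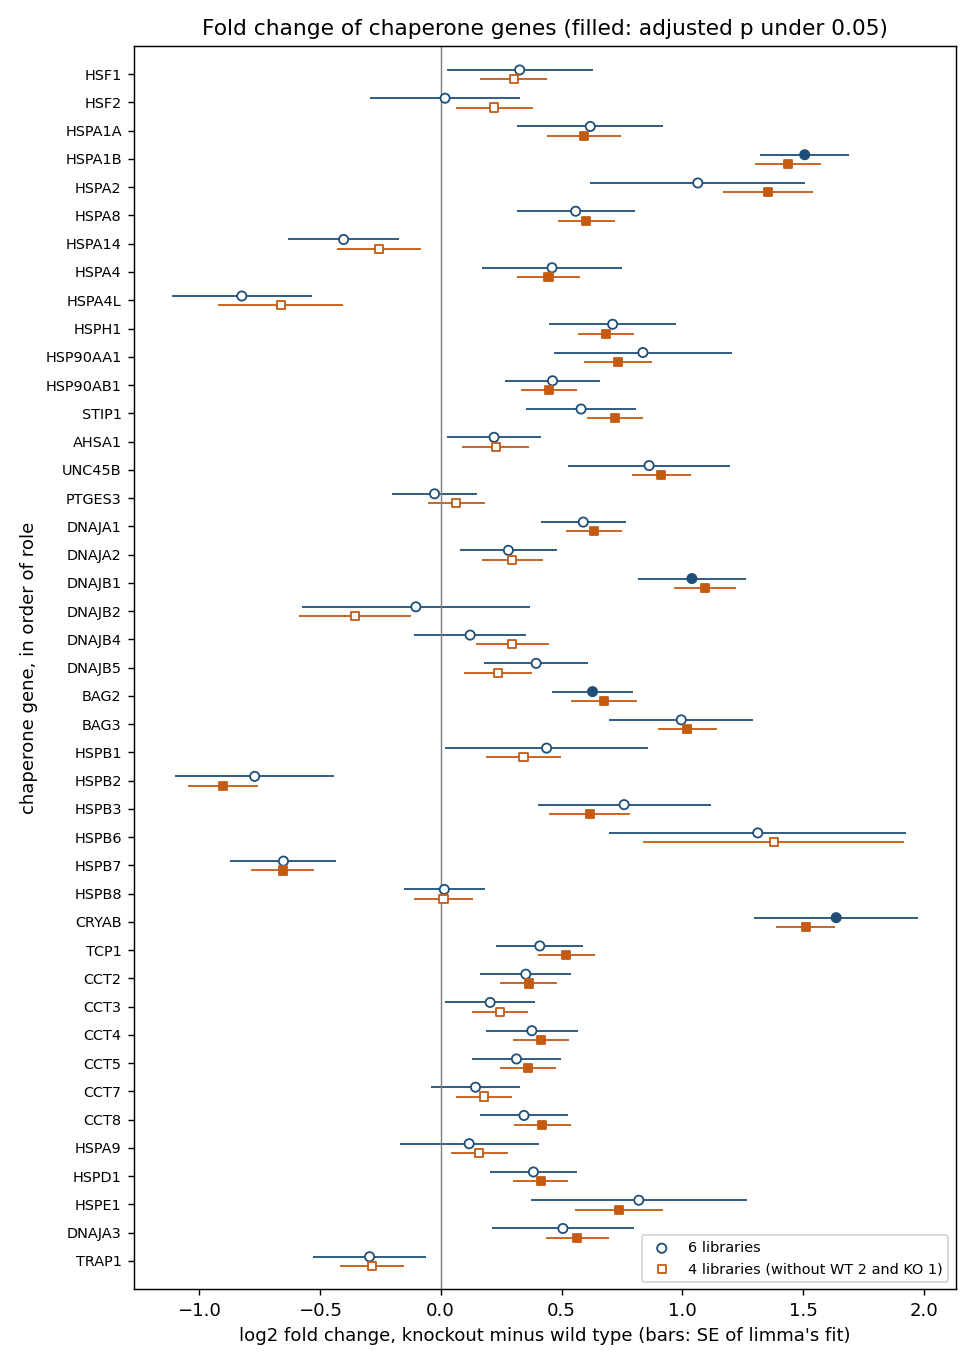
The x axis is the log2 fold change of knockout minus wild type with the SE of limma's fit as bars, and the rows are the 43 genes in order of role. Blue circles use all 6 libraries and orange squares the 4 without wild-type replicate 2 and knockout replicate 1, and filled symbols mark an adjusted p under 0.05, of which there are 4 among the circles and 26 among the squares.

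No HSP90 gene or co-chaperone on the list passed with all 6 libraries. HSP90AB1, the constitutive form, had 43384, 42206 and 42605 normalized counts in the wild type and 59421, 59164 and 58104 in the knockout. The spread within a genotype was small beside the gap, with 42732 ± 600 against 58896 ± 698 (SD, n = 3 each), yet the moderated test, which borrows the spread of genes of like level, gave a log2 fold change of 0.46 (SE 0.20, limma adjusted p = 0.175). DESeq2 on the recovered reads called it (adjusted p = 0.0121). It was 0.45 with the 4 libraries (limma adjusted p = 0.0144) and 0.11 with quantile normalization.

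HSP90AA1, the stress-inducible form, had 35032, 52031 and 28096 against 107288, 48809 and 55674 normalized counts. Wild-type replicate 2 was above knockout replicate 2, and the log2 fold change of 0.84 (SE 0.37) did not pass (limma adjusted p = 0.191). With the 4 libraries it was 0.73 (limma adjusted p = 0.00297). The ratio of HSP90AA1 to HSP90AB1 was highest in wild-type replicate 2 (1.23) and knockout replicate 1 (1.81) and lay between 0.660 and 0.958 in the other libraries.

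UNC45B, the HSP90 co-chaperone that folds myosin heads in striated muscle, had 23181, 14356 and 25108 normalized counts in the wild type and 24316, 47518 and 43425 in the knockout. Knockout replicate 1 lay within the wild-type range. The log2 fold change was 0.86 (SE 0.34, limma adjusted p = 0.142), 1.16 without knockout replicate 1 (limma adjusted p = 0.0328) and 0.91 with the 4 libraries (limma adjusted p = 0.000309).

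STIP1, which hands clients from HSP70 to HSP90, had 13861, 11807 and 13033 against 14548, 22713 and 21599 normalized counts, without overlap (log2 fold change 0.58, SE 0.23, limma adjusted p = 0.146). It was 0.78 without knockout replicate 1 (limma adjusted p = 0.0294) and 0.72 with the 4 libraries (limma adjusted p = 0.00114). AHSA1, which stimulates the ATPase of HSP90, and PTGES3, which stabilizes its closed state, differed by 0.22 and -0.02 on the log2 scale (adjusted p = 0.526 and 0.951 by limma), with overlap in both.

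The small heat shock proteins moved in both directions. CRYAB, the chaperone of desmin and titin that is among the most abundant in heart, had 14473, 21848 and 13837 normalized counts in the wild type and 80892, 37631 and 43105 in the knockout. The means were 16719 ± 4453 and 53876 ± 23556 (SD, n = 3 each), 3.22-fold, and every knockout library exceeded every wild-type one. Wild-type replicate 2 and knockout replicate 1 were each the high library of their genotype. The log2 fold change was 1.64 (SE 0.34, limma adjusted p = 0.0195). Dropping replicate 1 or 3 of the wild type gave an adjusted p of 0.0932 or 0.0853, dropping replicate 3 of the knockout gave 0.0588, and with the 4 libraries the change was 1.51 (limma adjusted p = 1.24e-05).

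Counted per kilobase of transcript, CRYAB went from place 7 among the 43 members by its wild-type mean to place 2 by its knockout mean. Its level was 14940 normalized counts per kilobase in the wild type and 48150 in the knockout. HSPB1 was the highest of the 43 in all 6 libraries, at 64530 and 91010 per kilobase. HSPB7 went the other way, from place 2 (31380 per kilobase) to place 8 (19950 per kilobase).

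HSPB2, the neighbour of CRYAB on chromosome 11, differed from it in direction. It had 5548, 8373 and 5420 normalized counts in the wild type and 5881, 2645 and 3273 in the knockout (log2 fold change -0.77, SE 0.33, limma adjusted p = 0.178; -0.90 with an adjusted p of 0.00107 in the 4 libraries). Only knockout replicate 1 reached the wild-type range, and without it the value was -1.10 (limma adjusted p = 0.0287). Within a genotype the 2 genes kept one ratio even in the libraries that stood apart. HSPB2 over CRYAB was 0.383, 0.383 and 0.392 in the wild type and 0.0727, 0.0703 and 0.0759 in the knockout, a 5.29-fold difference between the means (exact two-sided permutation p = 0.1, the smallest this design allows, adjusted 0.2).

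In GENCODE 29 on GRCh38, CRYAB spans chr11:111908565-111923722 on the minus strand and HSPB2 spans chr11:111912242-111914093 on the plus strand, so the gene models overlap. No word of 31 bases is shared between their main transcripts in the same orientation, but an overlap on opposite strands would not give one. Words in the opposite orientation were not compared, so this does not address counting without strand. Whether counting used strand is not given, so reads from the overlap could fall to either. The table also lists the readthrough gene HSPB2-C11orf52, with 2257, 2819 and 1999 against 2058, 889 and 1409 normalized counts (log2 fold change -0.77, limma adjusted p = 0.166), and part of its reads may belong to HSPB2. HSPB2-C11orf52 was called lower without knockout replicate 1 (limma adjusted p = 0.0402), with the 4 libraries and with equal totals.

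HSPB7, a cardiac small heat shock protein that binds filamins, had 85727, 84829 and 101687 normalized counts in the wild type and 54222, 58585 and 60293 in the knockout. Every knockout library was below every wild-type one, at 63.6% of the wild-type mean. The log2 fold change of -0.65 (SE 0.22) missed the threshold (limma adjusted p = 0.0976) and was -0.65 with an adjusted p of 0.00372 in the 4 libraries, and equal totals gave -0.93 (adjusted p = 0.0297).

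HSPB1, HSPB3 and HSPB6 shared with CRYAB and HSPB2 a pattern in which wild-type replicate 2 and knockout replicate 1 were the high libraries. HSPB1, which protects actin filaments, had 44082, 84804 and 47080 against 131151, 49282 and 67747 normalized counts (log2 fold change 0.44, SE 0.42, limma adjusted p = 0.563). HSPB3, a muscle form that pairs with HSPB2, had 10481, 15392 and 9443 against 31703, 12669 and 18378 (log2 fold change 0.76, limma adjusted p = 0.219; 0.62 with an adjusted p of 0.0180 in the 4 libraries). Each overlapped between genotypes. HSPB6 was low, with 27.2, 72.4 and 21.7 against 165, 74.7 and 56.0 normalized counts and as few as 18 reads (log2 fold change 1.31, limma adjusted p = 0.217). HSPB8, the partner of BAG3, was nearly level over the 6 libraries, from 9242 to 10489 normalized counts (log2 fold change 0.02, SE 0.17, limma adjusted p = 0.969).

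**Figure D4:**
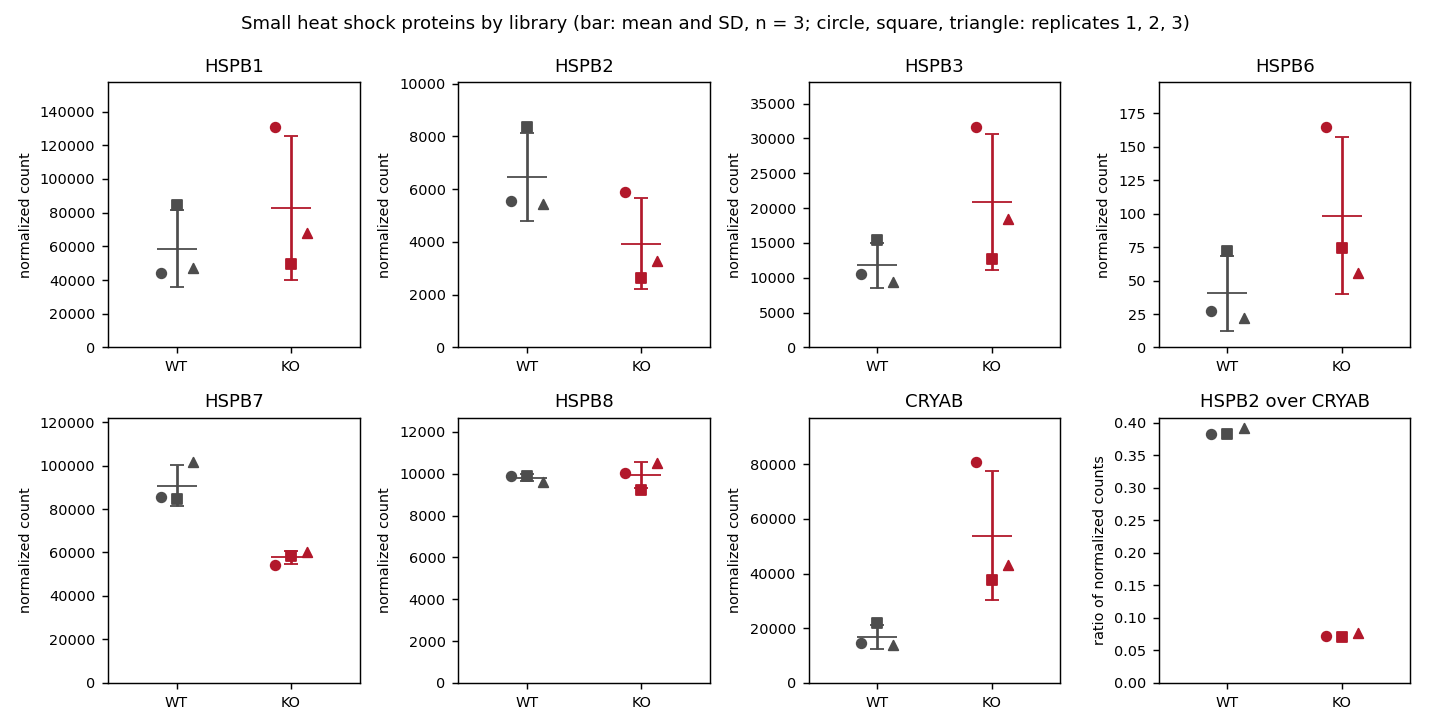
Each panel gives the normalized count of 1 small heat shock protein gene in 3 wild-type (WT) and 3 knockout (KO) libraries, with mean and SD, on axes that start at 0. The last panel gives the ratio of HSPB2 to CRYAB, which is 0.383 to 0.392 in the wild type and 0.0703 to 0.0759 in the knockout although CRYAB itself varies between the libraries of a genotype.

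The 7 TRiC subunits on the list, which are parts of one ring, had similar small differences and 0 passed. Their log2 fold changes ran from 0.14 (CCT7) to 0.41 (TCP1), all above 0, although CCT3 and CCT7 turned negative with equal totals (-0.08 and -0.14) and with quantile normalization (-0.07 and -0.13). In 5 subunits the knockout lay above the wild type without overlap, as it did in 16.2% of all tested genes. TCP1 had 10084, 10235 and 9626 normalized counts in the wild type and 11678, 14369 and 13896 in the knockout (limma adjusted p = 0.186). CCT2 had 21864, 19470 and 21208 against 24461, 26414 and 29069 (log2 fold change 0.35, limma adjusted p = 0.274). Knockout replicate 1 was the lowest knockout library in all 7. With the 4 libraries 5 of 7 passed, TCP1, CCT2, CCT4, CCT5 and CCT8, with log2 fold changes from 0.36 to 0.52. In that fit 15.7% of all genes were called higher. Apart from fits without 1 library, the lowest log2 values of these 5 over the alternative settings were near 0. They were 0.13 for TCP1, 0.05 for CCT2, 0.10 for CCT4, 0.03 for CCT5 and 0.06 for CCT8. CCT6A, another subunit and not on the member list, had a log2 fold change of 0.23 (limma adjusted p = 0.493).

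The mitochondrial members did not pass either. HSPD1, the chamber of the mitochondrial chaperonin, had 23364, 22734 and 22296 normalized counts in the wild type and 28472, 29875 and 30929 in the knockout, without overlap (log2 fold change 0.38, SE 0.18, limma adjusted p = 0.220; 0.41 with an adjusted p of 0.0203 in the 4 libraries). HSPE1, its lid, had 13460, 26132 and 12312 against 51630, 17208 and 26790 (log2 fold change 0.82, SE 0.45, limma adjusted p = 0.287; 0.74 with an adjusted p of 0.0115 in the 4 libraries). Of this pair, HSPD1 was level within genotypes and HSPE1 was not. Equal totals lowered HSPD1 to 0.10 and quantile normalization to 0.03 (limma adjusted p = 0.772 and 0.963). The same settings gave HSPE1 0.54 and 0.55.

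These 2 genes lie head to head on chromosome 2, with main GENCODE transcripts that overlap by their first bases, and the ratio of HSPD1 to HSPE1 ran from 0.552 to 1.81. It was lowest in knockout replicate 1 and next lowest in wild-type replicate 2 (0.870), so it followed the libraries that stood apart rather than the genotype. The readthrough gene HSPE1-MOB4 had 1483, 1577 and 1237 against 2238, 1937 and 2313 normalized counts (log2 fold change 0.60, limma adjusted p = 0.0849), and its reads may be shared with HSPE1. DESeq2 called HSPE1-MOB4 higher (adjusted p = 0.029), and so did limma with the 4 libraries. HSPA9, the mitochondrial HSP70, had a log2 fold change of 0.12 (limma adjusted p = 0.844), and its J protein DNAJA3 one of 0.51 (limma adjusted p = 0.315; 0.57 with an adjusted p of 0.00765 in the 4 libraries). TRAP1, the mitochondrial HSP90, was among the few members with a negative value, at 6070, 4121 and 5429 against 3314, 4941 and 4505 normalized counts (log2 fold change -0.29, limma adjusted p = 0.478).

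Summed over the 43 members, the libraries held 613669 ± 20110 normalized counts in the wild type and 829794 ± 67200 in the knockout (SD, n = 3 each). As a share of all counts in a library the members made up 1.77, 1.63 and 1.78% in the wild type and 1.81, 1.97 and 1.96% in the knockout. Every knockout share was above every wild-type share, and the relative gap was smaller in the shares than in the sums.

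A list of 64 other chaperones and co-chaperones, chosen by function, gave the rest of the folding system. Of 62 tested, 4 were higher and 1 lower (limma, adjusted p under 0.05), or 6.45% and 1.61% against 5.97% and 6.79% of all genes. The median log2 fold change was 0.23. With the 4 libraries 15 were higher and 4 lower, or 24.2% and 6.45% against 15.7% and 14.9% of all genes in that fit. The 8 prefoldin and TRiC genes, the 3 muscle partners of BAG3 and UNC45B and the 3 tested small heat shock and heat shock control genes held 0 calls.

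The 4 that rose belong to the HSP70, HSP90 and mitochondrial HSP70 systems. HSPA6, an HSP70 that is nearly silent without stress, had 81.6, 71.6 and 61.2 normalized counts in the wild type and 210, 241 and 241 in the knockout (log2 fold change 1.68, SE 0.30; adjusted p = 0.0109 by limma). It lost its call without knockout replicate 3 (adjusted p = 0.0531). BAG1, a nucleotide exchange factor, had 4625, 5885 and 4190 against 13694, 9347 and 10514 (log2 fold change 1.19, SE 0.22, limma adjusted p = 0.0140). GRPEL1, the exchange factor of HSPA9, had 3335, 4290 and 2956 against 8600, 6283 and 7325 (log2 fold change 1.08, SE 0.22, limma adjusted p = 0.0179). None of these 3 overlapped between genotypes. BAG1 and GRPEL1 each lost the call in 3 of 6 fits, those that dropped replicate 1 or 3 of the wild type or replicate 3 of the knockout (largest adjusted p = 0.0768 and 0.0893).

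CDC37L1, a relative of the kinase-specific HSP90 co-chaperone CDC37, had 1316, 1279 and 982 against 2090, 1876 and 2213 normalized counts (log2 fold change 0.80, limma adjusted p = 0.0393), and missed the threshold in all 6 fits without 1 library (adjusted p up to 0.147). The gene that fell was BCS1L, an inner-membrane chaperone for respiratory complex III, with 2525, 2200 and 2441 against 1351, 1440 and 1512 (log2 fold change -0.73, SE 0.17, limma adjusted p = 0.0323); it was called in 2 of the 6 fits without 1 library, with adjusted p-values up to 0.154. HSPA1L, next to HSPA1A on chromosome 6 and sharing 4.38% of its 31-base words with it, had 116, 76.2 and 91.9 against 228, 193 and 161 (log2 fold change 1.03, limma adjusted p = 0.0787). FKBP5, an HSP90 co-chaperone, had 1776, 790 and 1847 against 167, 595 and 683, without overlap (log2 fold change -1.75, limma adjusted p = 0.0908). With the 4 libraries FKBP5 was at -1.51 (limma adjusted p = 0.000133). Of the 62 genes tested, 44 had a fold change above 0 and 18 below.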

How the data were processed

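RNA of 3 wild-type and 3 STK25 knockout libraries was analysed from the authors' deposited table, 1 value per gene symbol and library. The submitters' processing notes name bcl2fastq 2.19, kallisto 0.44.0, DESeq2 1.28.1 and GRCh38, without saying what each did; the annotation and use of strand are not given in the sources used here. The values are a deposited signal called normalized counts. In every column 100% of values were whole multiples (within 0.01) of a common step, so reads could be recovered from each value. Intervals for counting error would not cover PCR copies, since no molecular identifiers are mentioned.

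The main test was limma 3.58.1 under R 4.3.3 (lmFit, eBayes with a trend) on log2(value + 1), which understates changes of low genes, for genes that averaged 10 or more, over all 6 libraries with no covariate. P-values are two-sided and adjusted by Benjamini-Hochberg over all 15536 genes tested; standard errors are from the moderated fit. The recovered reads were also tested with edgeR 4.0.16 and with DESeq2 1.42.0. No libraries of a genotype were alike within counting noise (chi-square over its degrees of freedom 20.1 to 388). Alternatives changed the pseudocount (0.1, 10), the filter (none, or an average of 50), the scaling (upper quartiles, totals, quantiles), the variance model (robust, or with no trend) or the libraries (each dropped, or wild-type replicate 2 together with knockout replicate 1), or added a block for replicate number. The fits were also run on simulated counts, with independent libraries and 1 setting of spread for every gene. Such counts lack the shared deviation by transcript length, so that run does not show how the fits handle it.

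Transcript length is that of the longest principal (APPRIS) transcript, or of the longest protein-coding one where none is marked, in GENCODE 29. Named were every member, and other chaperones past the threshold. CCT6A, HSPA1L, FKBP5 and the readthrough genes were named after their values were seen. The members and lists were chosen with earlier results of these data known. Plots come from matplotlib 3.10.9 under Python 3.11.15.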

Additional observations from a re-analysis of the deposited data

How the results depend on the processing

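Against 4 members higher and 0 lower, equal totals gave 2 and 2, DESeq2 gave 8 and 1, the fit without wild-type replicate 2 and knockout replicate 1 gave 24 and 2, and fits without 1 library gave 1 to 7 and 0 to 1. Quantile normalization and eBayes without a trend gave 2 higher. Of other chaperones (4 higher, 1 lower), DESeq2 called 8 and 2, the 4 libraries 15 and 4, fits without 1 library from 0 to 4 and 0 to 1, and eBayes without a trend 0 lower. Over all genes 1982 were called in the main fit, 3210 with DESeq2 and 4706 with the 4 libraries. STK25 ranged from -1.24 to -1.05 without 1 library and was -1.28 with the 4 libraries.

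The replicate numbers did not pair the libraries: deviations of same-numbered libraries correlated with r of -0.23, -0.40 and 0.17, and not every library correlated best with its own number. With the replicate number as a block 1 member and 0 other chaperones were higher, 0 other chaperones were lower, STK25 was -1.12 (limma adjusted p = 0.0684), and 798 of all genes were called in place of 1982.

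These log2 values, of genes that passed no test, changed sign. Equal totals lowered every member by 0.28 and equal upper quartiles by 0.05, so values smaller than that had to change sign. Equal totals gave HSF2 -0.263, HSPA9 -0.164, HSPB8 -0.266, DNAJA2 -0.0015, DNAJB4 -0.160, AHSA1 -0.0607, CCT3 -0.0769 and CCT7 -0.138. Quantile normalization gave HSF2 -0.016, HSPA9 -0.120, HSPB8 -0.217, AHSA1 -0.0045, CCT3 -0.0745 and CCT7 -0.130, and equal upper quartiles HSF2 -0.0293 and HSPB8 -0.0324. DNAJB2 was 0.0429 with edgeR and 0.0645 with DESeq2. Over the fits without 1 library HSF2 ran from -0.154 to 0.346, HSPA9 from -0.087 to 0.366, HSPB8 from -0.0252 to 0.066, DNAJB2 from -0.620 to 0.303 and PTGES3 from -0.0799 to 0.0545, and with the 4 libraries PTGES3 was 0.0656. For the other settings the cause was not tested. With 3 libraries per genotype, 2 of them apart, the spread between replicates limits the precision; the lowest read count of any member was 18, in HSPB6.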
